A study of Mus musculus with 24 samples.

Results

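The 48 sarcomere structure genes described here encode the contractile lattice of striated muscle. They were taken by gene symbol, under a rule with no cutoff on measured values although earlier results of these data were known, from 55487 genes listed for 24 bulk RNA libraries of C2C12 myotubes, and they fall into thin filament (17 genes), thick filament (9), Z-disc (13), M-band (4, with the M-band-bound creatine kinase Ckm), titin and its protease (2), assembly chaperones (2) and costamere (1) groups. C2C12 is a mouse skeletal muscle line of wild-type genotype, whose myoblasts had been differentiated to myotubes under 5 % O2 in every group, with day 5 given as the time. Myotubes were then held for 2 h under 5 % or 1 % O2. Per the study's methods, these 2 h came before electrical stimulation to contract, given in short bouts (5 % STIM and 1 % STIM). The other groups were not stimulated (5 % CTRL and 1 % CTRL), with 6 libraries in each group. The methods also give a change of medium on either side of the stimulation. They do not say whether unstimulated cells had the same changes and the added time of the bouts. Stimulated cells were collected immediately after the bouts. All RNA was thus from cells grown at 5 % O2, a cultured line without nerve or load, and the study's methods call the 6 libraries of a group biological replicates. The labels do not say whether they came from separate cultures or days, so the p-values measure the spread between these libraries. In bulk RNA, fewer cells of a type and less RNA per cell cannot be told apart.

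In a sarcomere, actin thin filaments anchored at the Z-disc slide along myosin thick filaments that are held in register at the M-band. Calcium binds the troponin complex on the thin filament and moves tropomyosin away from the myosin-binding sites, while titin spans from Z-disc to M-band as a molecular spring. Leiomodins and tropomodulins set the length of the thin filament at its pointed end, and Z-disc proteins such as the Xin repeat proteins, filamin C, telethonin and LIM-domain adaptors join the lattice to the membrane and take part in its repair and mechanical signalling.

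Libraries held between 26541858 and 28173745 reads, and the deposited values are read counts per gene divided by a size factor for each library, called normalized counts here. All 48 genes reached 10 normalized counts in 6 or more libraries and were tested, among 14541 genes in all, by limma on log2(normalized count + 1), with Benjamini-Hochberg adjustment over all of them and a threshold of 0.05 on the adjusted p-value. Log2 fold changes are on this scale, so that changes of genes with few counts are understated. Replicate 1 of 1 % CTRL stood apart before any of these genes was considered. Its log2 values rose with exon length by 0.0945 per doubling of length, whereas the slopes of the other libraries lay between −0.0367 and 0.0550. Calls of the 48 genes that changed without it are named below for comparisons that include 1 % CTRL.

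The genes spanned more than 4 orders of magnitude per kb of exon in 5 % CTRL. Skeletal α-actin (Acta1, chromosome 8 from 123891769 to 123894751) led with 105193 ± 5080.2 normalized counts per kb (SD, n = 6), followed by the fast regulatory light chain Mylpf (chromosome 7 from 127208890 to 127214298) with 47255 ± 2622 and the slow troponin C Tnnc1 with 38926 ± 2887. These 3 did not overlap each other over the 6 libraries. Desmin (Des, chromosome 1 from 75360329 to 75368579), the intermediate filament of the Z-disc, was the most abundant Z-disc gene with 9879 ± 371 per kb, and the M-band protein Myom2 (chromosome 8 from 15057653 to 15133541) led its group with 4125 ± 121 per kb. Titin (Ttn, chromosome 2 from 76703980 to 76982547) had 336 ± 23.5 per kb and dystrophin (Dmd, chromosome X from 82948870 to 85206141), the costameric link to the membrane, 28.3 ± 0.811. At the bottom were the slow light chain Myl3 with 3.61 ± 1.91 per kb and the Z-disc calsarcin Myoz3 with 3.49 ± 1.19, which overlapped each other. Exon length here is the union of all annotated exons and understates genes with long, rarely used exons, such as Tnnt2, Myl4 and Tnni1.

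Fast, slow and developmental isoforms were present together. Of the 3 troponin T genes, fast Tnnt3 made up 60.1 % ± 0.814 (SD, n = 6) of the level per kb in 5 % CTRL, slow Tnnt1 24.3 % ± 0.445 and cardiac Tnnt2 15.6 % ± 0.416. This order rests on the annotated exon lengths, 7752 bases for Tnnt2 and 1583 for Tnnt3. Before division by length Tnnt2 had more normalized counts than Tnnt3 in 5 % CTRL (means of 56691 and 44760). Among troponin I genes, slow Tnni1 made up 48.9 % ± 1.26. Cardiac α-actin Actc1, expressed in developing skeletal muscle, was 14.2 % ± 0.691 of the sarcomeric actin level per kb. Across groups Tnnt3 had 59.7 % ± 0.382 of troponin T in 1 % CTRL, 61.2 % ± 0.402 in 5 % STIM and 59.7 % ± 0.591 in 1 % STIM. The shares in 5 % STIM and 1 % STIM did not overlap, for Tnnt3 (60.7 % to 61.9 % and 59.2 % to 60.6 %) or for Tnnt1 (23.6 % to 24.4 % and 24.7 % to 26.0 %), and these shares were not tested. All 48 genes together took 3.78 % ± 0.122 of reads in 5 % CTRL and 3.87 % ± 0.146 in 1 % CTRL, and with stimulation 3.82 % ± 0.170 (5 % O2) and 3.79 % ± 0.101 (1 % O2), so their summed share differed between groups by less than 1 SD of the libraries.

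The identity of the cells was checked against marker genes. All 12 myotube markers were detected, with summed normalized counts from 256423 to 345928 over the 24 libraries. Of 8 cardiomyocyte markers, Hand2 was at 0 in every library, Nkx2-5, Tbx5, Nppa and Mybpc3 did not pass the filter, and the summed counts of 2151 to 3787 were mostly Myh6, with 3233 normalized counts on average in 5 % CTRL. Actc1, Tnnt2 and Myl4, genes shared with heart muscle, were thus read in libraries where cardiac transcription factors were at or near 0.

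After 2 h under 1 % O2 without stimulation, sarcomere genes were mostly lower or little changed. Of the 48 genes, 24 were lower and 1 was higher in 1 % CTRL than in 5 % CTRL, where 30.5 % of all genes tested were called lower and 29.4 % higher (59.9 % in all). Their median log2 fold change was −0.082, against 0.0015 over all genes tested, and 25 of the 48 had an absolute log2 fold change under 0.1. Complete separation of the 6 libraries of each group was seen for 14 lower genes and 1 higher gene, where 19.9 % and 18.2 % of all genes did so. With libraries rescaled to the same total, the median of all genes moved to 0.082, the share of calls that were higher went from 49.05 % to 62.75 % over all genes, and the sarcomere genes split into 8 higher and 15 lower. Without replicate 1 of 1 % CTRL, 4 were higher and 23 lower, as Tpm3 (0.060, limma adjusted p = 0.0415), Mylpf and the developmental light chain Myl4 (0.13, limma adjusted p = 0.0384) were called higher and Myoz3 was no longer called. Statements on direction below are relative to the authors' scaling.

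**Figure D1:**
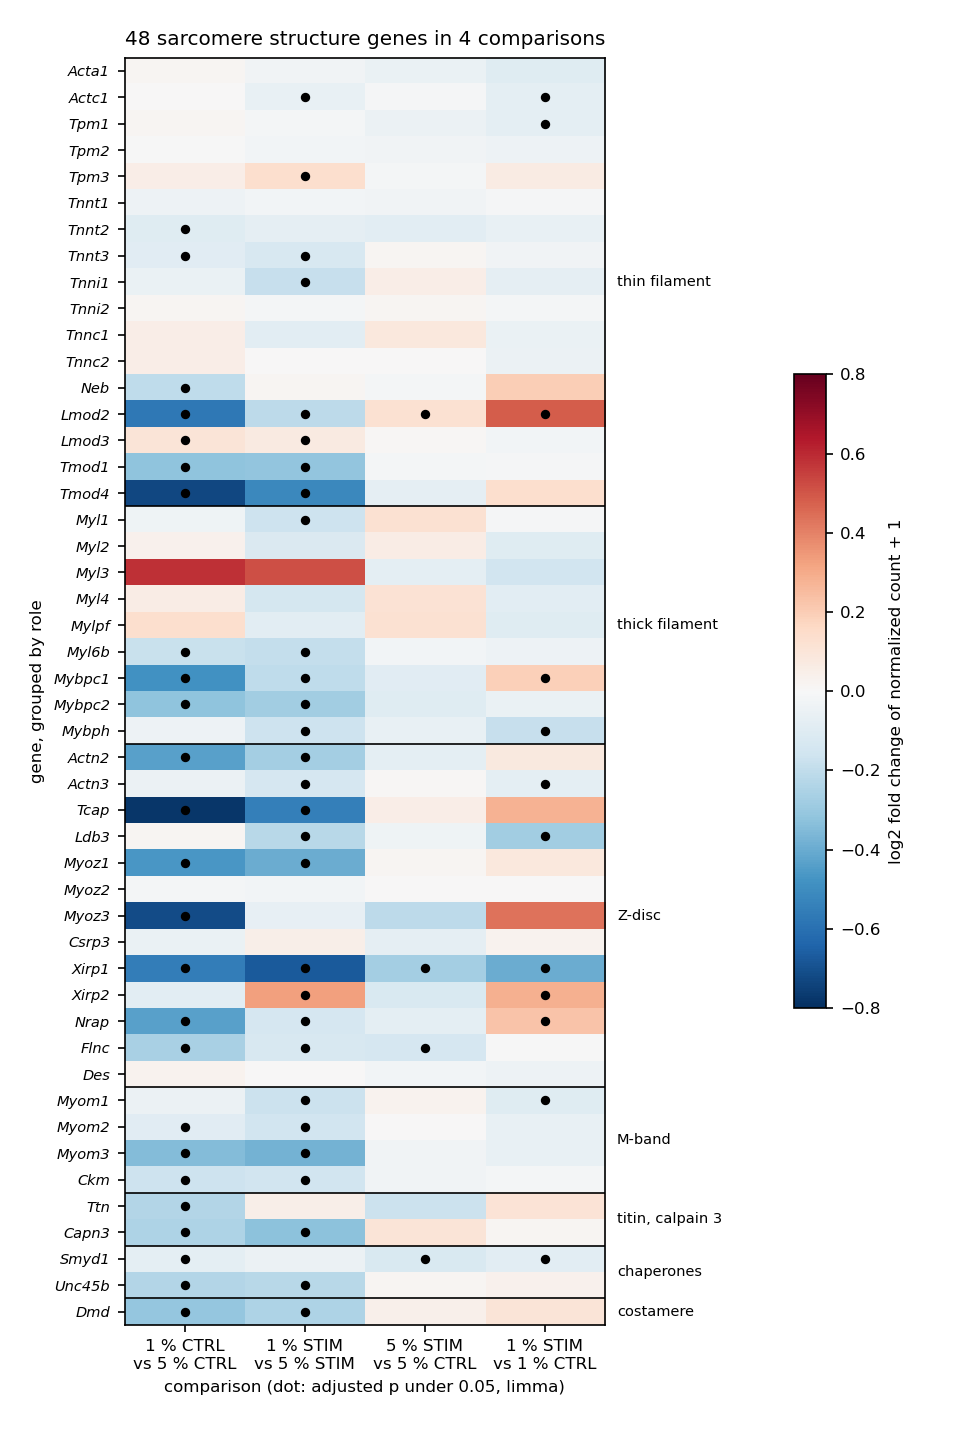
Log2 fold changes of the 48 sarcomere structure genes (rows, grouped by role) in 4 comparisons (columns), coloured from −0.8 (blue) to 0.8 (red), with a dot where limma's adjusted p-value was under 0.05. The O2 comparisons on the left hold 25 and 29 dots, most of them on blue cells, and the stimulation comparisons on the right hold 4 and 12.

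Among thin filament genes, 6 of 17 (35.3 %) were lower and 1 (5.88 %) higher in 1 % CTRL, where 30.5 % and 29.4 % of all genes tested were. The lower genes were the pointed-end genes Lmod2, Tmod1 and Tmod4, the thin filament ruler nebulin (Neb, −0.20, limma adjusted p = 0.0236) and the troponin T genes Tnnt2 (−0.098, limma adjusted p = 0.0172) and Tnnt3 (−0.088, limma adjusted p = 0.0134). Leiomodin 2 (Lmod2, chromosome 6 from 24597762 to 24605414), which nucleates and elongates actin at the pointed end, had normalized counts from 5693 to 6185 in 5 % CTRL, where the median was 5954. In 1 % CTRL they ran from 3821 to 4255 with a median of 3897. The groups did not overlap, and the log2 fold change was −0.57 (standard error 0.043, limma adjusted p = 4.07e-13). The tropomodulin Tmod1, which caps the same filament end, was lower by −0.32 (limma adjusted p = 9.70e-10), although the antisense gene Tstd2 holds 30.8 % of the 75-base words of its exons. Its relative Tmod4 was lower by −0.73 (limma adjusted p = 3.41e-05) at a mean of only 62.2 normalized counts in 5 % CTRL.

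Leiomodin 3 (Lmod3, chromosome 6 from 97238534 to 97252759) moved the other way. Its normalized counts ran from 6630.5 to 7149.9 with a median of 6778 in 5 % CTRL and from 7153 to 7549 with a median of 7297 in 1 % CTRL, without overlap (log2 fold change 0.10, standard error 0.027, limma adjusted p = 0.00135). Of the 48 genes, 14 had a log2 fold change above 0. Tpm3, with 0.055 (limma adjusted p = 0.0536), fell just outside the threshold and was called higher by edgeR (adjusted p = 0.0274) and DESeq2 (adjusted p = 0.020). Acta1 itself ran from 149406 to 170081 with a median of 163614 in 5 % CTRL and from 148303 to 172890 with a median of 164736 in 1 % CTRL. Its log2 fold change of 0.018 had a 95 % confidence interval from −0.074 to 0.11, so a change of over 0.11 in either direction lies outside the interval.

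On the thick filament, 3 of 9 genes (33.3 %) were lower, against 30.5 % of all genes tested. They were the 2 myosin-binding protein C genes in the set and the light chain Myl6b. Slow myosin-binding protein C (Mybpc1, chromosome 10 from 88518279 to 88605152), which links myosin to actin and tunes cross-bridge cycling, had normalized counts from 3455 to 4288 in 5 % CTRL, where the median was 3949.8. In 1 % CTRL it ran from 2642 to 2991 with a median of 2749.7, which put every 1 % library below every 5 % library (log2 fold change −0.49, standard error 0.054, limma adjusted p = 1.27e-08). The antisense gene Gm48752 shares 3.76 % of its exon sequence. The fast isoform Mybpc2 was lower by −0.32 (limma adjusted p = 4.91e-06). Mylpf had medians of 50009 and 57252 normalized counts, which gave a log2 fold change of 0.14 (standard error 0.080, limma adjusted p = 0.148). Here replicate 1 of 1 % CTRL was the lowest library at 42324, and without it the log2 fold change was 0.21 (limma adjusted p = 0.00607).

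Of 13 Z-disc genes 7 (53.8 %) were lower and 0 higher, against 30.5 % and 29.4 % of all genes tested. Xirp1 (chromosome 9 from 120013755 to 120023598) encodes Xin, an actin-binding repeat protein recruited to sites of myofibril damage. It had normalized counts from 12155 to 13408 with a median of 13217 in 5 % CTRL and from 8239.9 to 9245 with a median of 9001 in 1 % CTRL. The groups lay far apart, and Xirp1 fell by 31.9 % (log2 fold change −0.55, standard error 0.037, limma adjusted p = 5.83e-15). Telethonin (Tcap, chromosome 11 from 98383811 to 98384953), which caps titin at the Z-disc, ran from 927 to 1481 with a median of 1218 in 5 % CTRL and from 401 to 812 with a median of 771 in 1 % CTRL. Its log2 fold change was −0.78 (standard error 0.16, limma adjusted p = 0.000227), and −0.62 (limma adjusted p = 0.00017) without replicate 1 of 1 % CTRL, which sat at 401 while the other 5 lay between 746 and 812. It was the lowest value of the 48 genes with that library, and Tmod4 was lower without it (−0.72).

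The nebulin-related anchoring protein Nrap (chromosome 19 from 56320035 to 56390037), an actin scaffold of forming myofibrils, went from a range of 8497 to 9442 (median 8886) to a range of 6019.9 to 6826 (median 6655), again without overlap. Its log2 fold change was −0.43 (standard error 0.053, limma adjusted p = 8.63e-08), and antisense genes share 3.90 % of its exon sequence. The Z-disc actin crosslinker Actn2 fell by the same log2 fold change of −0.43 (limma adjusted p = 7.81e-08), while its fast isoform Actn3 had −0.047 (limma adjusted p = 0.134). Filamin C (Flnc, chromosome 6 from 29433256 to 29461883), a crosslinker that binds Xin, was lower by −0.26 (limma adjusted p = 2.41e-06). The calsarcin Myoz1 (chromosome 14 from 20649107 to 20656540), with a median of 141 normalized counts in 5 % CTRL, was lower by −0.47 (limma adjusted p = 0.000554) and by −0.38 without replicate 1 of 1 % CTRL. Myoz3 was called lower too (log2 fold change −0.71, limma adjusted p = 0.0396), at 2.86 to 18.3 normalized counts, and was not called without replicate 1 of 1 % CTRL (−0.59, limma adjusted p = 0.0978).

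In the remaining groups, the M-band gene Myom3 (chromosome 4 from 135759715 to 135815564) went from a median of 9442 to 7517 normalized counts (log2 fold change −0.35, limma adjusted p = 1.76e-12) without overlap, Myom2 had −0.092 (limma adjusted p = 0.0251) and Ckm −0.17 (limma adjusted p = 0.00330). After rescaling to equal library totals, Myom2 was no longer called (−0.011, limma adjusted p = 0.780). Titin was lower by −0.24 (standard error 0.076, limma adjusted p = 0.0109), and its libraries overlapped, from 36994 to 44442 in 5 % CTRL and from 29106 to 38703 in 1 % CTRL. Its call was lost with libraries rescaled to the same total (log2 fold change −0.15, limma adjusted p = 0.0701). The muscle calpain Capn3 (chromosome 2 from 120456019 to 120504913), a protease bound to titin, was lower by −0.24 (limma adjusted p = 1.70e-06), although its neighbour Ganc holds 5.67 % of its exon words. Both chaperones were called lower, Unc45b, which folds the myosin head, by −0.23 and Smyd1 (chromosome 6 from 71213940 to 71322233), a methyltransferase bound to it, by −0.081 (limma adjusted p = 0.0310). After rescaling to equal library totals, the log2 fold change of Smyd1 was 0.0001 (limma adjusted p = 0.999). Dystrophin ran from 652 to 701 in 5 % CTRL and from 502 to 578 in 1 % CTRL, a log2 fold change of −0.31 (limma adjusted p = 4.84e-07).

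**Figure D2:**
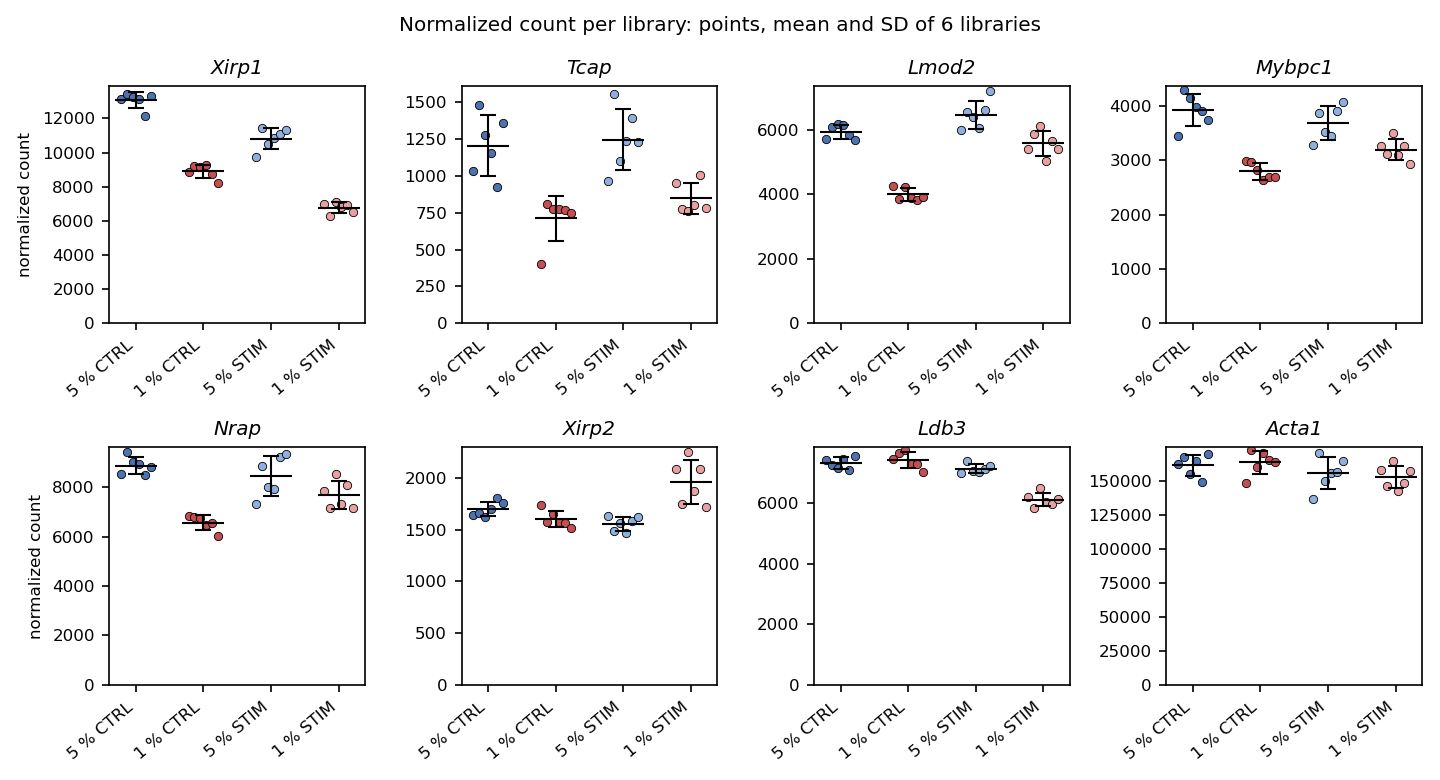
Normalized count (vertical axis, from 0) in each of the 24 libraries for 8 sarcomere structure genes, with group means and SD of 6 libraries. Xirp1 is lowest in 1 % STIM, Lmod2, Mybpc1 and Nrap are lowest in 1 % CTRL, Xirp2 is highest and Ldb3 lowest in 1 % STIM, and 1 library of 1 % CTRL at 401 lies below the others for Tcap.

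Markers of the myotube state were read beside these falls. Of the 12 myotube markers, 6 were lower and 2 higher in 1 % CTRL, where 30.5 % and 29.4 % of all genes tested were. Their summed normalized counts were 269721 to 283365, against 325179 to 345928 in 5 % CTRL. These sums include the sarcomeric myosin genes Myh3 (log2 fold change −0.40) and Myh8 (−0.40), which belong to the same structure as the set. The muscle transcription factor Myog went from 30613 ± 1016 normalized counts (SD, n = 6) to 19439 ± 857 (log2 fold change −0.66, limma adjusted p = 5.26e-14). Of 7 myoblast markers, 3 were higher and 3 lower, with sums of 5439 to 5828 in 5 % CTRL and 5456 to 7433 in 1 % CTRL. Of 7 smooth muscle markers, of which Des is also a member of the set, 6 were higher and 0 lower, with sums of 138104 to 148692 and 151118 to 160764. Their part in the result was not tested.

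In stimulated myotubes the O2 response had the same general direction. Of the 48 genes, 26 were lower and 3 higher in 1 % STIM than in 5 % STIM, where 28.4 % of all genes tested were called lower and 29.0 % higher (57.4 % in all). The median log2 fold change was −0.13, against −0.00083 over all genes. Libraries rescaled to the same total gave 4 higher and 20 lower, with 63.24 % of calls higher over all genes against 50.44 %. The groups did not overlap for 9 genes that were lower (18.7 % of all genes) and 2 that were higher (18.7 % of all genes). Of the myotube markers 9 were lower and 1 was higher, with sums of 256423 to 285497 in 1 % STIM and 294743 to 322743 in 5 % STIM. Of the smooth muscle markers 5 were higher and 0 lower (142315 to 154407 against 123768 to 139248), and of the myoblast markers 3 were higher and 3 lower. Their part in the result was not tested.

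The falls at both stimulation states can be set side by side, since these comparisons share no library. Of the genes lower in 1 % CTRL, 19 (79.2 %) were also lower in 1 % STIM, which is 73.1 % of those lower there, and 0 were called in opposite directions. They were Tnnt3, Lmod2, Tmod1, Tmod4, Myl6b, Mybpc1, Mybpc2, Actn2, Tcap, Myoz1, Xirp1, Nrap, Flnc, Myom2, Myom3, Ckm, Capn3, Unc45b and Dmd, and Lmod3 was higher in both. Some of these calls depended on the scaling. After rescaling to equal library totals, Flnc (−0.057, limma adjusted p = 0.215) and Nrap (−0.063, limma adjusted p = 0.283) were not called with stimulation. Myom2 was not called without it (−0.011, limma adjusted p = 0.780). Across the 48 genes the log2 fold changes had a Pearson correlation of 0.732 and a Spearman correlation of 0.641, given as a description, since genes of 1 library share its depth and composition. Over all genes tested the shares were 75.8 % and 81.4 % and the correlations 0.771 and 0.802, so the sarcomere genes did not stand out in this respect.

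Xirp1 had the lowest log2 fold change of the 48 genes in this comparison. It ran from 9725 to 11448 with a median of 10956 in 5 % STIM and from 6292 to 7118 with a median of 6865 in 1 % STIM, without overlap (log2 fold change −0.67, standard error 0.037, limma adjusted p = 4.31e-17). Tcap had −0.55 (limma adjusted p = 0.00536), Myoz1 −0.40 (limma adjusted p = 0.00278), Myom3 −0.38 (limma adjusted p = 3.11e-13) and Capn3 −0.33 (limma adjusted p = 6.49e-09). All 4 M-band genes were lower, including Myom1 (chromosome 17 from 71002633 to 71126856), which had −0.17 (limma adjusted p = 7.46e-05) here and −0.046 (limma adjusted p = 0.262) in 1 % CTRL. The genes that were higher were Xirp2, described with the interaction, Lmod3 (0.074, limma adjusted p = 0.0204) and the tropomyosin gene Tpm3 (chromosome 3 from 90072649 to 90100902). It is counted below as a slow isoform, although counts per gene do not tell its transcripts apart. Tpm3 ran from 10040.3 to 10611 in 5 % STIM and from 10853 to 11706 in 1 % STIM (log2 fold change 0.14, limma adjusted p = 1.56e-05), and the copy Tpm3-rs7 holds 19.1 % of its exon words.

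Stimulation itself left most sarcomere genes where they were within the precision of 6 libraries. In 5 % O2, 3 of 48 genes were lower and 1 was higher in 5 % STIM than in 5 % CTRL, where 12.0 % of all genes tested were called lower and 9.44 % higher (21.4 % in all). The median log2 fold change was −0.019, against −0.0076 over all genes, 37 genes had an absolute log2 fold change under 0.1, and the 95 % confidence interval lay within ±0.25 for 38. In 1 % O2, 8 were lower and 4 higher in 1 % STIM than in 1 % CTRL, where 10.8 % and 11.5 % of all genes were called (22.3 % in all), and 32 intervals lay within ±0.25. The groups did not overlap in 5 % O2 for 1 lower gene, Xirp1, and 0 higher genes (5.44 % and 5.64 % of all genes), and in 1 % O2 for 3 lower and 2 higher genes (5.91 % and 5.29 % of all genes). With libraries rescaled to the same total the splits were 2 higher and 2 lower in 5 % O2 (62.17 % of calls higher over all genes, against 44.04 %) and 6 higher and 3 lower in 1 % O2 (62.30 % against 51.40 %). Of the myotube markers, 3 were lower after stimulation in 5 % O2 and 4 in 1 % O2, and 5 and 4 of the smooth muscle markers were lower. Their part in the result was not tested.

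Xirp1 was lower after stimulation at both O2 levels. From the values above, 5 % STIM (9725 to 11448) lay below 5 % CTRL (12155 to 13408), and 1 % STIM (6292 to 7118) lay below 1 % CTRL (8239.9 to 9245). The log2 fold changes were −0.27 (standard error 0.037, limma adjusted p = 6.02e-07) and −0.39 (standard error 0.037, limma adjusted p = 2.11e-10). Their difference of −0.12 did not pass the test of the interaction (standard error 0.052, limma adjusted p = 0.140). Smyd1 was lower in both (−0.12, limma adjusted p = 0.00510, and −0.087, limma adjusted p = 0.0486), with overlap between the groups each time. Flnc was lower in 5 % O2 (−0.13, limma adjusted p = 0.0197, and 0.131 with the length trend of each library removed) and had −0.0013 (95 % confidence interval −0.085 to 0.083) in 1 % O2, a difference that was not called (0.13, limma adjusted p = 0.157). Capn3 was not called in 5 % O2 in the main fit (0.10). It was called higher with libraries rescaled to the same total (0.13, limma adjusted p = 0.0126), with array weights (limma adjusted p = 0.0337) and with the length trend removed (limma adjusted p = 0.0325). The same held without replicate 1 of 1 % CTRL (limma adjusted p = 0.0468), and by edgeR, DESeq2 and limma voom.

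In 1 % O2 the genes lower after stimulation also included myosin-binding protein H and the Z-disc adaptor Ldb3. Mybph (chromosome 1 from 134193448 to 134201232) ran from 50149 to 57355 with a median of 54853 in 1 % CTRL and from 46076 to 49477 with a median of 48483 in 1 % STIM, without overlap (log2 fold change −0.18, limma adjusted p = 0.000306). The antisense gene Adora1 shares 40.7 % of its exon sequence, so this value is uncertain. Myom1 was lower by −0.10 (limma adjusted p = 0.0372), and by −0.076 (limma adjusted p = 0.0959) without replicate 1 of 1 % CTRL. Actc1, Tpm1 and Actn3 were lower by −0.077, −0.079 and −0.079. Acta1 had −0.10 (limma adjusted p = 0.132), and −0.13 (limma adjusted p = 0.0370) without replicate 1 of 1 % CTRL. Without that library Mylpf (−0.17, limma adjusted p = 0.0482) and Myl4 (−0.15, limma adjusted p = 0.0370) were also called lower and Neb higher (0.26, limma adjusted p = 0.00531).

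The response to stimulation differed with O2 for 5 of the 48 genes, 4 with a higher response in 1 % O2 and 1 with a lower response. Of all genes tested, 5.88 % and 5.43 % were called (11.3 % in all), so the set did not stand out by this count. This interaction is the log2 fold change upon stimulation in 1 % O2 minus that in 5 % O2, and it equals the O2 response of stimulated myotubes minus that of unstimulated ones. The same 5 genes were called under each of the 10 alternatives that kept the threshold of 0.05 and could give an interaction. Without replicate 1 of 1 % CTRL, 6 more were called (Neb, Ttn, Tnni1, Myl4, Mylpf and Mybph), 11 in all.

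Lmod2 and Mybpc1, both lower in 1 % CTRL, were higher after stimulation in 1 % O2. Lmod2 ran from 5991 to 7183 with a median of 6458 in 5 % STIM and from 5031 to 6113 with a median of 5532 in 1 % STIM. All 1 % STIM libraries lay above all 1 % CTRL libraries (3821 to 4255), and stimulation gave a log2 fold change of 0.48 (standard error 0.043, limma adjusted p = 1.75e-10), while in 5 % O2 it was 0.12 (limma adjusted p = 0.0430, and 0.202 with the length trend of each library removed). The interaction was 0.36 (standard error 0.061, limma adjusted p = 9.57e-05). For Mybpc1, 5 % STIM ran from 3289.6 to 4074 with a median of 3697 and 1 % STIM from 2942 to 3499.5 with a median of 3193. Its response was −0.092 (limma adjusted p = 0.248) in 5 % O2 and 0.19 (limma adjusted p = 0.00993) in 1 % O2, an interaction of 0.28 (standard error 0.076, limma adjusted p = 0.0151).

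Nrap had the same shape. Its range was 7329.8 to 9332 with a median of 8427 in 5 % STIM and 7162 to 8546 with a median of 7585 in 1 % STIM, which lay above 1 % CTRL (6019.9 to 6826) without overlap. The response was −0.076 (limma adjusted p = 0.343) in 5 % O2 and 0.23 (limma adjusted p = 0.00235) in 1 % O2, an interaction of 0.30 (standard error 0.075, limma adjusted p = 0.00876). Its fall in 1 % STIM against 5 % STIM (−0.13, limma adjusted p = 0.0344) was lost when those groups were fitted alone (limma adjusted p = 0.116).

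Xirp2 and Ldb3 stood apart in 1 % STIM, in opposite directions. Xirp2 (chromosome 2 from 67446002 to 67526614), the second Xin gene, ran from 1627 to 1804 with a median of 1678 in 5 % CTRL and from 1513 to 1741 with a median of 1576 in 1 % CTRL. In 5 % STIM it ran from 1469 to 1629 with a median of 1571, and in 1 % STIM from 1722 to 2256 with a median of 1980.1. The 1 % STIM libraries lay above 5 % STIM without overlap (log2 fold change 0.33, standard error 0.050, limma adjusted p = 1.73e-06) and above 1 % CTRL with overlap (0.28, limma adjusted p = 6.21e-05), and the interaction was 0.41 (standard error 0.071, limma adjusted p = 0.000164). Between 5 % STIM and 5 % CTRL the value was −0.12 (limma adjusted p = 0.0777), called when those groups were fitted alone (limma adjusted p = 0.0138). Its paralog Xirp1 was lowest in that group, and the 2 genes had log2 fold changes of opposite sign in both comparisons that end in 1 % STIM.

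Ldb3 (chromosome 14 from 34526603 to 34588682), which encodes the PDZ and LIM domain protein ZASP/Cypher that binds α-actinin, overlapped in 3 groups. It ran from 7109.6 to 7569 with a median of 7344 in 5 % CTRL, from 7038 to 7745 with a median of 7381 in 1 % CTRL and from 7011 to 7405 with a median of 7083 in 5 % STIM. In 1 % STIM it ran from 5845 to 6501 with a median of 6090.1, below every library of the other groups. The log2 fold change was −0.28 (standard error 0.028, limma adjusted p = 1.40e-09) against 1 % CTRL and −0.22 (limma adjusted p = 2.67e-08) against 5 % STIM, and the interaction was −0.24 (standard error 0.040, limma adjusted p = 6.67e-05). In 1 % CTRL against 5 % CTRL it had 0.017 (limma adjusted p = 0.622), and 0.098 (limma adjusted p = 0.00175) after rescaling to equal library totals.

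**Figure D3:**
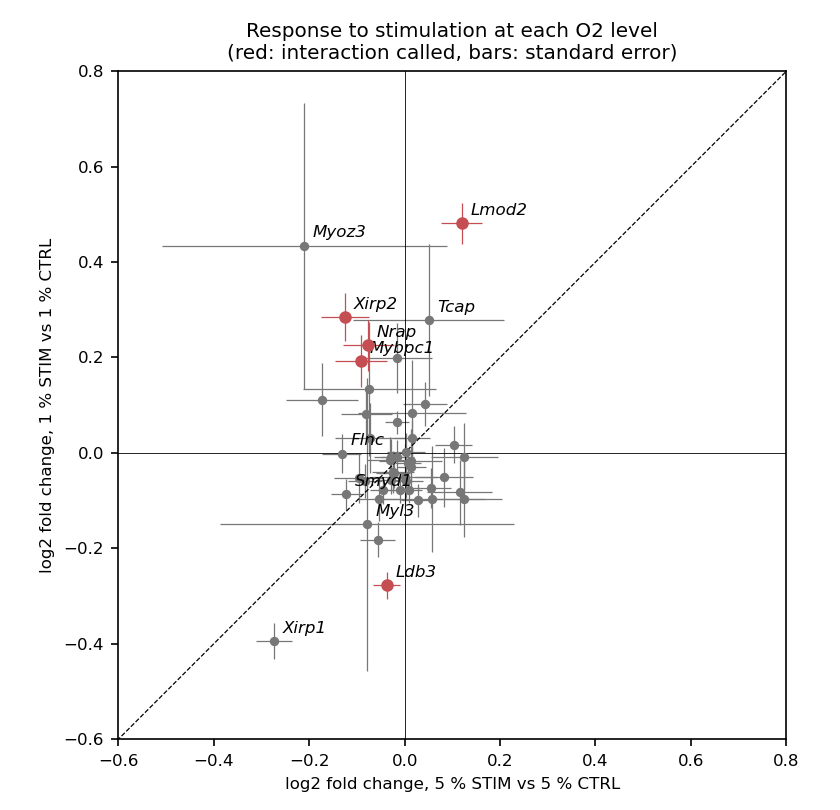
Log2 fold change after stimulation in 5 % O2 (horizontal axis) and in 1 % O2 (vertical axis) for the 48 genes, with standard errors as bars and equal responses on the dashed line. The 5 genes with a called interaction are red, with Lmod2, Xirp2, Nrap and Mybpc1 above the line and Ldb3 below it, and Xirp1 is negative on both axes.

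To show the promoters of the genes whose response differed with O2, the sequence before the start sites of all 5 is printed. Acta1 is added as an abundant gene that was not called in any comparison of the main fit. Each run is the 250 bases before the RefSeq start on GRCm38.p6, 5′ to 3′ in the direction of the gene, at chr6:24597521-24597770 (plus strand), chr10:88605153-88605402 (minus), chr19:56390039-56390288 (minus), chr2:67445752-67446001 (plus), chr14:34588682-34588931 (minus) and chr8:123894776-123895025 (minus). Capitals mark matches on either strand to the E-box CANNTG, bound by muscle bHLH factors, the CArG box of SRF and the MEF2 site, and within the printed runs only the 2 E-box matches of Xirp2 overlap.
Lmod2: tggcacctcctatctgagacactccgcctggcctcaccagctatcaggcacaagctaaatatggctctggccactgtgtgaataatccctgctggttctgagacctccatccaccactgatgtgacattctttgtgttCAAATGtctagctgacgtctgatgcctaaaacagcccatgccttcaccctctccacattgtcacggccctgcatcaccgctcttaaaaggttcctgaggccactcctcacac
Mybpc1: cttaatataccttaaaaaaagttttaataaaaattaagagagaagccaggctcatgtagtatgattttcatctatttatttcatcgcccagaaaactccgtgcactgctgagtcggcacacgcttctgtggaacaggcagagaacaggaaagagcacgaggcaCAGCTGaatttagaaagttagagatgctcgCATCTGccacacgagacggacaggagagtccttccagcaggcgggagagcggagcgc
Nrap: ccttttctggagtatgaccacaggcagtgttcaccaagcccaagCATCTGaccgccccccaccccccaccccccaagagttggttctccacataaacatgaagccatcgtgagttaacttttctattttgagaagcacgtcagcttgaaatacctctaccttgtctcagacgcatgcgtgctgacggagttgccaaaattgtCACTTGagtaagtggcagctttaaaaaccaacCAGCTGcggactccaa
Xirp2: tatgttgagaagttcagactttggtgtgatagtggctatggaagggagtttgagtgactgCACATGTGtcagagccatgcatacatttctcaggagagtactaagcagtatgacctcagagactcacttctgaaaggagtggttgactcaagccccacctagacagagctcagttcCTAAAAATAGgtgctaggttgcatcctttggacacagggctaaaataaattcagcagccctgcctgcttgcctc
Ldb3: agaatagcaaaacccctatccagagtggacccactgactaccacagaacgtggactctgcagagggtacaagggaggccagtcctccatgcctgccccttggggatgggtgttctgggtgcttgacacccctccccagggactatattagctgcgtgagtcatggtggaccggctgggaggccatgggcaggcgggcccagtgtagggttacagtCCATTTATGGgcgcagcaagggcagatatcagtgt
Acta1: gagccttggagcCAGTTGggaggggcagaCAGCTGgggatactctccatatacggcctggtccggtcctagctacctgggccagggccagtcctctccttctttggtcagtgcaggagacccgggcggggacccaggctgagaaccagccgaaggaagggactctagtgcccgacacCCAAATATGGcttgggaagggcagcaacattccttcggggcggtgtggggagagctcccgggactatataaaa

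The E-box was found in 5 of the 6 printed windows, all but that of Ldb3. Ldb3 and Acta1 each held 1 CArG box match, 35 to 26 bases before the start in Ldb3 and 73 to 64 bases before it in Acta1, and Xirp2 held 1 MEF2 match 74 to 65 bases before its start. Of the 48 genes, 38 had 47 entries among the RefSeq promoters, and the first entry of each gene was used. Of these, 84.2 % held CANNTG in this window, against 66.2 % of all 32851 promoter entries, where a gene can be counted more than once. The CArG box was in 15.8 % against 1.47 %, the MEF2 site in 15.8 % against 2.92 %, CATTCC (the MCAT element) in 23.7 % against 12.6 %, TATAAA in 15.8 % against 12.4 % and ACGTG (the core of the hypoxia response element) in 10.5 % against 16.6 %. A match describes the letters of the window and not binding.

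Genes of the bulk contractile machinery were set beside genes whose products answer to strain or damage. Of 28 bulk contractile genes (actins, tropomyosins, troponins, light chains, nebulin, titin, myosin-binding proteins C, myomesins, α-actinins and Ckm), 11 were lower and 0 higher in 1 % CTRL, with a median log2 fold change of −0.044. Of 14 stress-responsive genes (Xirp1, Xirp2, Csrp3, Flnc, Nrap, Des, Tcap, Ldb3, Capn3, Smyd1, Unc45b, Mybph, Lmod2 and Myoz2), 8 were lower and 0 higher, with a median of −0.16, and −0.083 when Xirp1 was left out. In 1 % STIM against 5 % STIM the bulk genes had 13 lower and 1 higher (median −0.10) and the stress-responsive genes 9 lower and 1 higher (median −0.15). After stimulation in 5 % O2, 0 bulk genes and 4 stress-responsive genes were called. In 1 % O2 there were 5 bulk genes (1 higher, 4 lower) and 7 stress-responsive genes (3 higher, 4 lower). The interaction was called for 1 bulk gene, Mybpc1, and 4 stress-responsive genes. Over all genes tested, 30.5 % were called lower in 1 % CTRL, 28.4 % in 1 % STIM against 5 % STIM, and 11.3 % in the interaction. For stimulation, 21.4 % were called in 5 % O2 and 22.3 % in 1 % O2. Lmod2, counted as stress-responsive, gave the 1 rise in 5 % O2 and 1 of the 4 interaction calls. Lmod3, Tmod1 and Tmod4 of the same filament end were in neither list. The lists were made with earlier results of these data known, and the difference between them was not tested.

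In the main limma fit 13 genes were called in no comparison, namely Acta1, Tpm2, Tnnt1, Tnni2, Tnnc1, Tnnc2, Myl2, Myl3, Myl4, Mylpf, Myoz2, Csrp3 and Des, so the set included stress-responsive genes that were not called. Some of them, such as Acta1, Mylpf, Myl4 and Des, were called under alternatives. Of these, Myl3 had the widest interval, with a log2 fold change of 0.59 in 1 % CTRL (95 % confidence interval −0.041 to 1.21) at a mean of 7.38 normalized counts in 5 % CTRL. Desmin, at 35583 to 38696 normalized counts in 5 % CTRL and 34395 to 39418 in 1 % CTRL, had 0.026 (95 % confidence interval −0.038 to 0.091). After rescaling to equal library totals it was called higher in 1 % CTRL (0.11, limma adjusted p = 0.00487). The same held in 1 % STIM against 5 % STIM (0.076, limma adjusted p = 0.0441).

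Fast and slow isoforms were counted separately. Of 9 fast isoforms 4 were lower in 1 % CTRL and 5 in 1 % STIM, and 0 were higher. Of 8 slow isoforms 1 was lower in 1 % CTRL, and 2 were lower and 1 higher in 1 % STIM. Of 4 cardiac or developmental isoforms 2 were lower in each. The counts for 1 % CTRL changed without its replicate 1. Fast Mylpf was then called higher (0.21, limma adjusted p = 0.00607), as were Tpm3 and developmental Myl4. Fast Myoz3, with few reads, was no longer called (−0.59, limma adjusted p = 0.0978). Of all genes tested, 30.5 % were lower in 1 % CTRL and 28.4 % in 1 % STIM. These lists are small, and the difference between them was not tested.

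Under 1 % O2 the less abundant genes had the larger changes. In 1 % CTRL against 5 % CTRL the 10 most abundant genes per kb had a median absolute log2 fold change of 0.042 and the other 38 had 0.19, and in 1 % STIM against 5 % STIM the values were 0.072 and 0.16. Across the 48 genes the Spearman correlation between the absolute log2 fold change and the level per kb was −0.574 and −0.475, and it was −0.203 and −0.344 for stimulation in 5 % and 1 % O2, a description that includes the greater noise of genes with few reads.

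**Figure D4:**
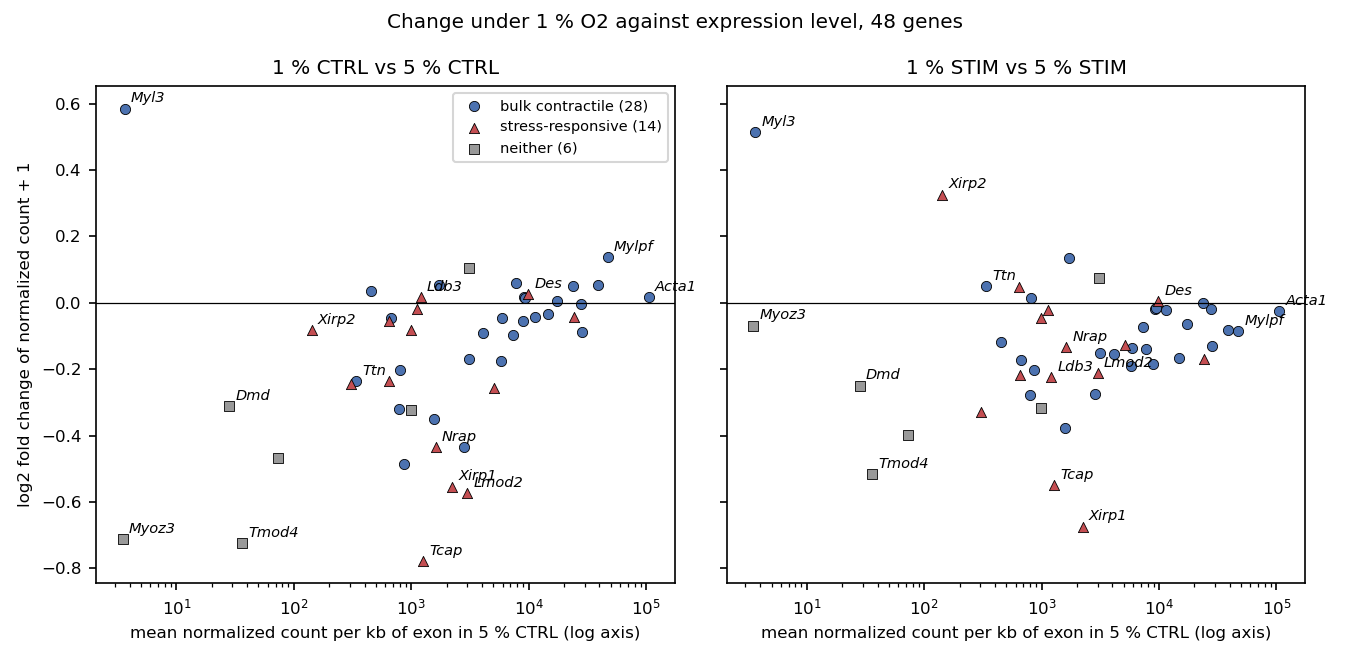
Mean normalized count per kb of exon in 5 % CTRL (horizontal, log axis) against the log2 fold change under 1 % O2 (vertical) for the 48 genes, without stimulation (left) and with it (right). Bulk contractile (28), stress-responsive (14) and other genes (6) are marked by shape, and Acta1 and Mylpf at the right lie near 0 while Tcap, Xirp1, Tmod4 and Dmd lie below it.

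Other genes of the same structures, listed by function, were read beside the set. Of 46 further sarcomere and Z-disc genes tested, 23 were lower and 8 higher in 1 % CTRL, 23 and 10 in 1 % STIM against 5 % STIM, 8 and 5 after stimulation in 5 % O2, and 8 and 6 in 1 % O2. In the same order, 30.5 % and 29.4 %, 28.4 % and 29.0 %, 12.0 % and 9.44 %, and 10.8 % and 11.5 % of all genes tested were called. Mylk2, the kinase of the regulatory light chain, averaged 1271 ± 43.2 normalized counts (SD, n = 6) in 5 % CTRL and 765 ± 66.6 in 1 % CTRL, and with stimulation 1746 ± 62.0 (5 % O2) and 1082 ± 87.3 (1 % O2). It was lower by −0.74 in 1 % CTRL (limma adjusted p = 1.13e-14) and higher after stimulation by 0.46 and 0.50. The ubiquitin ligase gene Trim63 (MuRF1), which targets thick filament proteins, rose upon stimulation from 1174 ± 58.9 to 2051 ± 54.4 in 5 % O2 (log2 fold change 0.81, limma adjusted p = 8.12e-19) and by 0.85 in 1 % O2, and was not called for O2. Synpo2l, a Z-disc synaptopodin, fell after stimulation by 0.49 and 0.48 on the log2 scale.

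The 7 sarcomeric myosin heavy chain genes, the motors of the thick filament, were not members but belong to the same structure. In 1 % CTRL 3 were higher and 3 lower, where 29.4 % and 30.5 % of all genes tested were. Fast Myh4 went from 15865 ± 1101 to 21964 ± 1252 normalized counts (SD, n = 6; log2 fold change 0.47, limma adjusted p = 1.33e-11) and embryonic Myh3 from 139000.0 ± 5208 to 105591 ± 3543 (−0.40, limma adjusted p = 9.25e-12). After stimulation in 5 % O2 6 of 7 were lower and 0 higher, and in 1 % O2 2 were lower. Of all genes tested, 12.0 % and 10.8 % were lower in these comparisons.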

How the data were processed

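RNA of C2C12 myotubes was sequenced in 24 libraries of 4 groups, given by the labels. The authors checked reads with FastQC 0.11.7, aligned them to GRCm38 with STAR 2.5.4b and counted genes with RSEM 1.3.0, per the submitters' processing notes and the study's methods. The annotation release is not given in the sources used here. The deposited signal is a gene count that the authors divided by a DESeq2 size factor for each library. Dividing by the smallest step of each library gave whole reads for 100 % of values within 0.001. Among the fits, these reads (26541858 to 28173745 per library) were used only for the count tests and for the rescaling to the same total. Both are alternatives (in 1 % CTRL against 5 % CTRL, edgeR called 8784 genes and limma 8708). A deposited table of the authors' own fold changes, test statistics and p-values was not used, and 0 columns of samples were left out.

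Genes that reached 10 normalized counts in 6 or more libraries were fitted in 1 model of the 4 groups with limma 3.58.1 (R 4.3.3; trend and robust options) on log2(normalized count + 1), with contrasts for O2, stimulation and their interaction and Benjamini-Hochberg adjustment over all genes tested. Self-tests on simulated data were run with the fits. Alternatives were a pseudocount of 10, no filter, the replicate number as a block, fits of the compared groups alone, rescaling to the same total, array weights, edgeR 4.0.16, DESeq2 1.42.0, limma voom, removal of a length trend, leaving out replicate 1 of 1 % CTRL, and a threshold of 0.01. Coordinates, exon lengths and shared sequence (words of 75 bases) came from GENCODE M21 on GRCm38, to which 99.53 % of gene identifiers matched, and promoters from RefSeq on GRCm38.p6. Counting is not stated to use strand, so reads of antisense partners cannot be told apart.

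The members and lists were chosen with earlier results of these data known. Described in full were, per comparison, the called members with the 5 largest rises and the 5 largest falls (mean of 100 or more where they were higher), those with a called interaction, and the most abundant member of each role per kb. From the other lists, up to 5 called genes with the largest change were eligible. A few further members are named with values to account for their role, chosen after their values were seen.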

Additional observations from a re-analysis of the deposited data

Results flagged for a closer look

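Of 88 sets of 6 libraries (22 genes in 4 groups), 3 had a library far from the others by Dixon's test, and chance alone gives about 1 in 20. For Tcap, replicate 1 of 1 % CTRL had 401 normalized counts while the other 5 had 746 to 812. For Xirp1, replicate 5 of 5 % CTRL had 12155 while the others had 13118 to 13408. For Ttn, replicate 1 of 5 % CTRL had 44442 while the others had 36994 to 39730.

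The response to stimulation differed between 1 % and 5 % O2 by the limma interaction test for Lmod2 (0.36 on the log2 scale), Mybpc1 (0.28), Xirp2 (0.41), Nrap (0.30) and Ldb3 (−0.24).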

How the results depend on the processing

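Across 110 pairs of a named gene and a comparison, 84 kept their direction and their side of the threshold under every alternative run. Over single alternatives, 31 values lost a call, 37 gained one and 1 reversed, which was Smyd1 in 1 % CTRL against 5 % CTRL with libraries rescaled to the same total (9.99866e-05). The same rescaling moved the median of the 48 genes to −0.0011 without and −0.062 with stimulation. After stimulation in 5 % O2, the 4 calls became 2 without a filter, 7 with array weights and 2 at a threshold of 0.01. In 1 % O2 the 12 calls became 7 at 0.01. The 5 interaction calls became 9 with array weights, and 11 without replicate 1 of 1 % CTRL. Without that library the 29 calls in 1 % STIM against 5 % STIM became 30. The cause was not tested. Same-numbered libraries did not deviate together (36 correlations from −0.1481 to 0.1547, 2 over 0.1). With the replicate number as a block, the calls were 25 and 29 for O2 without and with stimulation, 4 and 13 for stimulation in 5 % and 1 % O2, and 5 for the interaction, and among named genes Nrap lost its call in 1 % STIM against 5 % STIM (limma adjusted p = 0.0521). Precision was lowest for Myl3 and Myoz3, which had few reads.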

Other observations

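Genes of the actin cytoskeleton that are targets of SRF and its MRTF coactivators were read beside the sarcomere genes. Of 27 tested, 22 were lower and 1 higher after stimulation in 5 % O2, with a median log2 fold change of −0.19, and 13 were lower and 0 higher in 1 % O2, with a median of −0.12. Over all genes tested, 12.0 % were called lower in 5 % O2 and 10.8 % in 1 % O2. In 1 % CTRL against 5 % CTRL 11 were higher and 14 lower, where 29.4 % and 30.5 % of all genes tested were. Srf itself had −0.38 after stimulation in 5 % O2 and −0.19 in 1 % O2, both called lower by limma, and Actb, a cytoplasmic actin, −0.36 and −0.23. Ccn2, a secreted matrix protein, was lower under 1 % O2 by −1.79 without and −1.66 with stimulation.

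Klhl41, a kelch protein that stabilises sarcomere proteins, had −0.44 in 1 % CTRL against 5 % CTRL and 0.25 after stimulation in 1 % O2, with an interaction of 0.27. Fhl3, a LIM-domain protein of the Z-disc, had −0.33 after stimulation in 5 % O2 and an interaction of 0.35 (limma adjusted p = 0.0107).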
